A study of Mus musculus with 8 samples.

Results

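The genes described here are the collagens, laminins, integrins and a set of matricellular and adhesive glycoproteins in B16F10 cells, a mouse melanoma line. They were taken from the deposited gene table by symbol: every collagen chain (Col with a type and an alpha number), every laminin chain (Lama, Lamb and Lamc), every Itga and Itgb gene except Itgb1bp1, Itgb3bp and Itgbl1, and the 8 genes Fn1, Thbs1, Thbs2, Sparc, Ctgf, Cyr61, Tnc and Vcan. This gave 91 of 45556 named genes: 44 collagen chains, 11 laminin chains, 18 integrin alpha genes, 9 integrin beta genes, the 8 named glycoprotein genes and Itgb1bp2. Itgb1bp2 fits the symbol pattern, but it encodes melusin, a protein that binds integrin tails, and is not an integrin. The study sequenced bulk RNA of 2 stable lines, 1 with a hairpin against Drg2 (shDRG2) and 1 with the empty hairpin vector pLKO. Drg2 is the gene of a GTPase of the developmentally regulated family. Part of each line was left unstimulated, and part received 5 ng/ml of interferon-gamma (IFN-γ) over 24 hours. The 4 groups were therefore shDRG2 cells with IFN-γ, pLKO cells with IFN-γ, unstimulated shDRG2 cells and unstimulated pLKO cells, with 2 libraries each. Each line is represented once, and the control carries no hairpin, so differences between shDRG2 and pLKO cells are differences between these lines. The labels do not say that the 2 libraries of a group came from separate cultures, so p-values measure only the spread between these samples, which may be technical.

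Collagens are triple helices of alpha chains that form fibrils, sheet-like networks or filaments, or that decorate these structures. Laminins are trimers of an alpha, a beta and a gamma chain and, with type IV collagen, form the scaffold of basement membranes. Integrins are receptors made of an alpha and a beta chain that link these proteins and fibronectin to the cytoskeleton, while matricellular proteins such as thrombospondin and CTGF sit in the matrix and modify how cells attach to it and signal through it. In tumours much of the matrix is made by fibroblasts, and melanoma cells contribute basement membrane proteins and fibronectin of their own.

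Library totals were 25422758 to 36654519 estimated counts. Levels are given in CPM, counts scaled to the adjusted library total defined below. Drg2 was at 6.46 and 7.66 CPM in shDRG2 cells with IFN-γ, against 72.3 and 64.3 CPM in pLKO cells with IFN-γ. Unstimulated, Drg2 was at 8.68 and 9.34 CPM in shDRG2 cells, against 76.3 and 68.6 CPM in pLKO cells. Its log2 fold change in shDRG2 over pLKO cells was -3.27 with IFN-γ (adjusted p = 7.80e-07, edgeR) and -3.01 without (adjusted p = 1.53e-06, edgeR). The interferon-inducible genes Gbp2, Irf1, Cd274, Cxcl10 and B2m rose with IFN-γ in both lines, with log2 fold changes between 3.51 for Cxcl10 and 9.75 for Gbp2 in shDRG2 cells and between 3.55 for B2m and 10.05 for Gbp2 in pLKO cells. All 7 melanocyte markers were expressed, with a summed level of 9621 to 11057 CPM with IFN-γ, against 12910 to 14944 CPM without. With IFN-γ, 6 of these 7 markers fell in shDRG2 cells and 4 in pLKO cells, at an adjusted p under 0.05 (edgeR). Of all tested genes, 15.2% and 12.7% fell at that threshold. The 9 fibroblast markers summed to 10.5 to 12.9 CPM, most of it Pdgfrb, and Thy1 had no count. The 6 endothelial markers summed to 0.457 to 5.97 CPM, with Cdh5 and Kdr at 0. The 8 immune markers summed to 0.698 to 1.63 CPM, with Cd3e at 0, and the 5 epithelial markers to 0.164 to 0.657 CPM, with Epcam at 0. The 3 Schwann and neural markers summed to 57.8 to 103 CPM, most of it Ncam1.

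A small set of the 91 genes carried nearly all of the expression. There were 9 with no count in any library, among them Tnc, Thbs2, Col6a2 and the leukocyte integrin chains Itgam and Itgax, and 27 more had too few counts to test, with at most 10 counts in a library and a mean of at most 0.161 CPM. The remaining 55 were tested: 25 collagen chains, 5 laminin chains, 13 integrin alpha genes, 6 integrin beta genes and 6 of the 8 named glycoprotein genes. Of these, 19 averaged at least 10 CPM, 18 more lay between 1 and 10 CPM and 18 averaged under 1 CPM. Itgb1, Fn1, Sparc, Lamc1 and Itgav together held 63.9% to 74.6% of the summed CPM of the 91 genes in a library.

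Per kilobase of exon, which allows levels of different genes to be compared, Itgb1 led in every group. Its mean level was 169 CPM per kilobase in shDRG2 cells with IFN-γ, 167 in pLKO cells with IFN-γ, 165 in unstimulated shDRG2 cells and 168 in unstimulated pLKO cells. Itgb1 encodes the integrin beta chain with the most alpha partners. Sparc, a collagen-binding glycoprotein also called osteonectin, followed with a mean over all groups of 71.0 CPM per kilobase, and Fn1 (fibronectin) and Lamc1, the common laminin gamma chain, had means of 29.5 and 29.1. Their order depended on the group: in shDRG2 cells with IFN-γ, Fn1 was at 51.9, Sparc at 40.2 and Lamc1 at 29.8 CPM per kilobase, and in unstimulated pLKO cells Sparc was at 97.5, Lamc1 at 30.1 and Fn1 at 13.1. The most abundant alpha chains were Itga6, a laminin receptor chain, at 14.1 CPM per kilobase and Itgav, a receptor chain for vitronectin and fibronectin, at 13.3, with Itgav the higher of them in both groups with IFN-γ and Itga6 in both without. Among collagens the leading chains were Col4a2 at 11.1, Col4a1 at 5.90, Col4a5 at 5.41 and Col16a1 at 5.22 CPM per kilobase, of which the first 3 are type IV chains of basement membranes. Of the type I collagen that dominates fibroblast matrix, Col1a2 was at 0.866 and Col1a1 at 0.0496 CPM per kilobase. In CPM, Col1a2 averaged 10.8 and Col1a1 had 0.0933 to 0.469 in each library. Their annotated exons cover 12.4 and 6.56 kilobases, and which of these exons are used was not tested. Among laminins Lamc1, Lamb2 at 15.4 and Lama4 at 5.22 CPM per kilobase stood far above Lama5 and Lamb1.

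**Figure D1:**
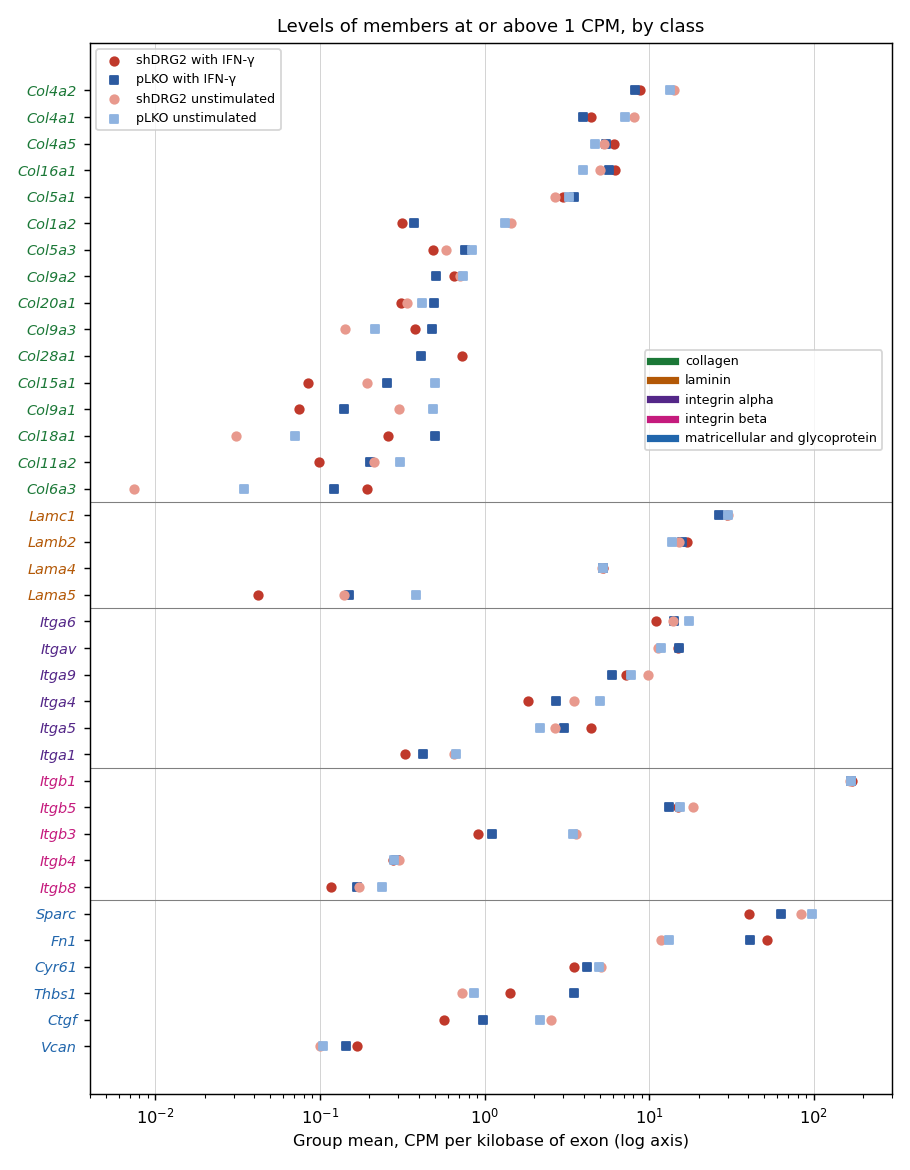
Mean level in each group, in CPM per kilobase of exon on a log axis, of the 37 tested genes that average at least 1 CPM, ordered within class. Circles are shDRG2 cells and squares pLKO cells, dark with IFN-γ and pale without. Itgb1, Lamc1, Lamb2 and Lama4 have nearly superimposed points, while Fn1, Col18a1, Col6a3, Col1a2 and Itgb3 are split between dark and pale points; Col28a1 has no pale point because it had no counts without IFN-γ.

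IFN-γ changed most of the tested genes in each line, in both directions. In shDRG2 cells 31 of 55 were called at an adjusted p under 0.05, 13 higher and 18 lower, or 56.4%, where 31.4% of all 13500 tested genes were called (16.2% higher and 15.2% lower). At an unadjusted p under 0.05 there were 37, against 41.2% of all tested genes. In pLKO cells 30 of 55 were called, 13 higher and 17 lower, or 54.5%, against 28.1% of all tested genes (15.4% higher and 12.7% lower), and 33 had an unadjusted p under 0.05, against 38.4% of all tested genes. The median size of the log2 fold change was 0.91 over these genes and 0.25 over all tested genes in shDRG2 cells, and 0.66 and 0.23 in pLKO cells. With signs kept, the medians of the 55 genes were -0.11 in shDRG2 cells and -0.06 in pLKO cells. The lists of calls shared 28 genes, 90.3% of those of shDRG2 cells and 93.3% of those of pLKO cells, of which 12 rose and 16 fell in both. The matching overlap over all called genes was not counted, so this share is not shown to be particular to these genes. For some calls the filter on low counts fixed the direction. Itgal, Col4a4, Col14a1 and Lamb1 passed it through unstimulated libraries alone, so they could only have been called lower. Col6a1, Itga2, Itga3 and Col28a1 passed it through IFN-γ libraries alone, so they could only have been called higher. In bulk RNA a change in the share of cells that express a gene cannot be told apart from a change in RNA per cell. Adjusted p-values are from edgeR's quasi-likelihood test over all tested genes, log2 fold changes are of IFN-γ over unstimulated cells, and n = 2 libraries a group.

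Among the 55 genes, fibronectin had the largest rise in CPM in both lines. Fn1 (chromosome 1, 71585520 to 71653200, minus strand, GRCm38) was at 728 and 484 CPM in shDRG2 cells with IFN-γ and at 135 and 141 CPM in unstimulated shDRG2 cells. Fn1 in pLKO cells was at 561 and 402 CPM with IFN-γ and at 162 and 145 CPM without. All 4 stimulated libraries lay above all 4 unstimulated ones, and in each line replicate 1 was the higher stimulated library. Fn1 rose 4.38-fold in shDRG2 cells (log2 fold change 2.13, SE 0.194, adjusted p = 1.57e-05). In pLKO cells the rise was 3.14-fold (1.65, SE 0.191, adjusted p = 0.000109). Fn1 made up 5.8% to 27.1% of the summed CPM of the 91 genes across libraries.

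Thbs1, the gene of thrombospondin-1, a trimeric glycoprotein that binds CD47 and activates latent TGF-beta, also rose in both lines. Lying on the plus strand of chromosome 2 (118111876 to 118127133), Thbs1 gave 7.36 and 9.98 CPM in shDRG2 cells with IFN-γ and at 3.30 and 5.58 CPM in unstimulated shDRG2 cells. For pLKO cells the values were 24.4 and 18.2 CPM with IFN-γ and 5.62 and 4.91 CPM without. The stimulated and unstimulated libraries did not overlap in either line, and the pLKO libraries with IFN-γ stood above all others. The log2 fold change was 0.99 in shDRG2 cells (SE 0.251, adjusted p = 0.0128) and 2.01 in pLKO cells (SE 0.239, adjusted p = 0.000136). The call in shDRG2 cells ended without replicate 1 of unstimulated shDRG2 cells or replicate 2 of shDRG2 cells with IFN-γ.

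Sparc and Ctgf fell. Sparc was at 156 and 149 CPM in shDRG2 cells with IFN-γ and at 317 and 315 CPM in unstimulated shDRG2 cells (log2 fold change -1.05, SE 0.202, adjusted p = 0.00271). In pLKO cells it was at 295 and 181 CPM with IFN-γ and at 429 and 309 CPM without, where the 2 stimulated libraries lay far apart (-0.63, SE 0.200, adjusted p = 0.0382). The fall in pLKO cells held in 6 of 14 alternative analyses. Ctgf, also named Ccn2, encodes a matricellular protein that binds integrins and growth factors and is a common readout of YAP and TAZ activity. It was at 1.77 and 1.48 CPM in shDRG2 cells with IFN-γ and at 7.43 and 6.98 CPM in unstimulated shDRG2 cells (-2.16, SE 0.327, adjusted p = 0.000606). Ctgf in pLKO cells was at 3.71 and 1.89 CPM with IFN-γ and at 7.76 and 4.72 CPM without (-1.17, SE 0.311, adjusted p = 0.0175). Its groups did not overlap within a line, and Gm15270 overlaps 23.2% of its exon bases from the opposite strand, so some of these reads could belong to that gene. The Ctgf call in pLKO cells ended without replicate 1 of unstimulated pLKO cells or replicate 2 of pLKO cells with IFN-γ. Its relative Cyr61, or Ccn1, was not called in shDRG2 cells (-0.55, adjusted p = 0.0589) or pLKO cells (-0.24, adjusted p = 0.410). Vcan, the gene of the proteoglycan versican, stood at 0.76 in shDRG2 cells (adjusted p = 0.0651) and 0.46 in pLKO cells (adjusted p = 0.262).

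**Figure D2:**
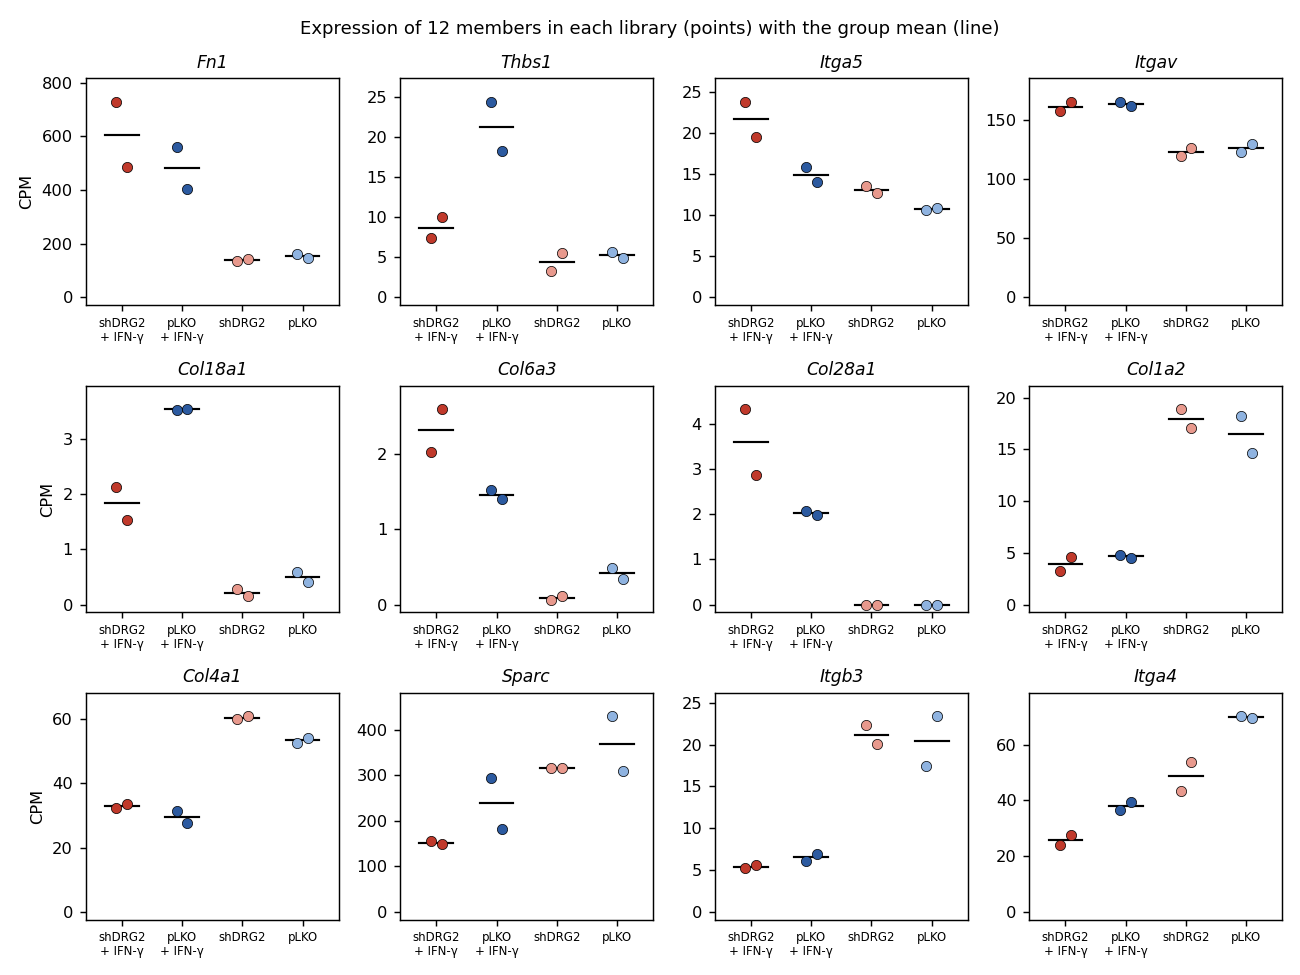
CPM of 12 genes in each of the 8 libraries (points, 2 a group) with the group mean (line), each panel on its own linear axis. Fn1, Thbs1, Itga5, Itgav, Col18a1, Col6a3 and Col28a1 are higher with IFN-γ in both lines, and Col1a2, Col4a1, Sparc, Itgb3 and Itga4 are lower; Thbs1 stands highest in pLKO cells with IFN-γ, at 24.4 and 18.2 CPM.

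Collagen chains moved in both directions. Of 25 tested chains, 8 rose and 7 fell in shDRG2 cells and 7 rose and 7 fell in pLKO cells, with a median log2 fold change of -0.11 and 0.06. The chains called were 60% and 56% of those tested, against 31.4% and 28.1% of all tested genes. Those that rose in both lines were Col6a1, Col6a3, Col8a1, Col9a3, Col16a1, Col18a1 and Col28a1. Those that fell in both were Col1a2, Col4a1, Col4a2, Col4a4, Col9a1 and Col15a1.

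Type VI collagen forms beaded filaments between basement membranes and the interstitial matrix, from chains that assemble together. Its chain gene Col6a3 was at 2.03 and 2.60 CPM in shDRG2 cells with IFN-γ and at 0.0622 and 0.116 CPM in unstimulated shDRG2 cells (4.68, SE 0.438, adjusted p = 1.95e-05). For pLKO cells the Col6a3 values were 1.52 and 1.40 CPM with IFN-γ and 0.489 and 0.344 CPM without (1.80, SE 0.343, adjusted p = 0.00304). The groups of each line were fully separate, and the unstimulated shDRG2 libraries were the lowest of all. Col6a1 had 34 counts in shDRG2 cells with IFN-γ and 1 count in unstimulated shDRG2 cells, a ratio of 29.6 with a 95% counting interval of 4.97 to 1203 (adjusted p = 0.00148). In pLKO cells Col6a1 was at 0.334 and 0.396 CPM with IFN-γ and at 0.0917 and 0.0938 CPM without (1.94, adjusted p = 0.0377), a call kept in 7 of 14 alternative analyses and lost without any single IFN-γ library or unstimulated pLKO library. The third classical chain gene of type VI collagen, Col6a2, had no count in any library.

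Col18a1 encodes a basement membrane collagen whose C-terminal fragment is endostatin. It was at 2.13 and 1.53 CPM in shDRG2 cells with IFN-γ and at 0.280 and 0.155 CPM in unstimulated shDRG2 cells (3.01, SE 0.386, adjusted p = 0.000201). Col18a1 in pLKO cells was at 3.52 and 3.53 CPM with IFN-γ and at 0.581 and 0.407 CPM without (2.83, SE 0.324, adjusted p = 0.000104). Its close relative Col15a1, also a collagen of the basement membrane zone, went the other way. Col15a1 was at 0.333 and 0.739 CPM in shDRG2 cells with IFN-γ and at 1.31 and 1.16 CPM in unstimulated shDRG2 cells (-1.17, adjusted p = 0.0291). In pLKO cells Col15a1 was at 1.67 and 1.58 CPM with IFN-γ and at 3.09 and 3.28 CPM without (-0.97, adjusted p = 0.0322). The groups of both genes were separate within each line. The Col15a1 call held in 10 of 14 alternative analyses in shDRG2 cells and in 9 of 14 in pLKO cells.

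Col28a1, a collagen with von Willebrand factor domains, was detected with IFN-γ in both lines and had no count in the 4 unstimulated libraries. It had 130 and 105 counts in shDRG2 cells with IFN-γ, or 4.33 and 2.87 CPM, and 56 and 65 counts in pLKO cells with IFN-γ, or 2.08 and 1.98 CPM. It was at least 68.2-fold higher with IFN-γ in shDRG2 cells (adjusted p = 2.57e-05) and at least 43.6-fold higher in pLKO cells (adjusted p = 7.28e-05), taking 3 counts in the unstimulated group as a floor. Col28a1 passed the filter on low counts through its IFN-γ libraries alone, so it could only have been called higher. Its promoter is shown because, among matched genes that rose in both lines, its window alone held the gamma-activated site pattern searched for. The sequence runs 5′ to 3′ on the minus strand from 250 bases before to 50 after the RefSeq start site (chr6:8192568-8192867, GRCm38.p6), and capitals mark a match to the pattern TTCNNNGAA that begins 104 bases before the start site.
Col28a1: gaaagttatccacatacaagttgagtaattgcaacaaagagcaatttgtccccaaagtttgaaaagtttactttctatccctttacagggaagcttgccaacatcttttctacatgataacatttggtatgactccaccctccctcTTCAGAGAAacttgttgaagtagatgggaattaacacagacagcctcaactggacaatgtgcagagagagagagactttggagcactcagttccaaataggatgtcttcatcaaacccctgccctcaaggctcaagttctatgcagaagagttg

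Interferon-responsive promoters are known to carry gamma-activated sites or interferon-stimulated response elements. RefSeq promoter windows of this kind were matched for 9 of the 12 genes that rose in both lines (11 windows) and for 12 of the 16 that fell (13 windows). On either strand, the gamma-activated site pattern TTCNNNGAA was in 1 of the 11 windows, that of Col28a1, and in none of the 13. It was in 2726 of all 32851 RefSeq mouse windows of the same length, or 8.3%. The response element pattern (GAAA, 2 bases of any kind, GAAA) was in 1 of the 11 windows, that of Itga3, and in none of the 13, against 1131 of all windows, or 3.44%. A match to these letters is a description of the sequence and not evidence of a bound site. The Itga3 window is shown for that match, which lies on the opposite strand of the printed sequence and begins 100 bases before the start site (chr11:95076665-95076964, minus strand, GRCm38.p6; capitals mark the match).
Itga3: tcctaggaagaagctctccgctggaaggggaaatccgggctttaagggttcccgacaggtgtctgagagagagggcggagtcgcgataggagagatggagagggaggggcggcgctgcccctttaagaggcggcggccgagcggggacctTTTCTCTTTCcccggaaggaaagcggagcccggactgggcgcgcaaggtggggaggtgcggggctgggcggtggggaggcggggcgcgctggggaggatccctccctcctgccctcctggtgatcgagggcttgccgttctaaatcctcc

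Type IV collagen, the network-forming collagen of basement membranes, was lower with IFN-γ. Col4a1 was at 32.4 and 33.6 CPM in shDRG2 cells with IFN-γ and at 59.9 and 60.8 CPM in unstimulated shDRG2 cells (-0.87, SE 0.0840, adjusted p = 2.50e-05). In pLKO cells it was at 31.4 and 27.5 CPM with IFN-γ and at 52.6 and 54.2 CPM without (-0.86, SE 0.0847, adjusted p = 3.44e-05). Its partner chain Col4a2 fell by 0.69 on the log2 scale in shDRG2 cells (adjusted p = 0.000106) and by 0.70 in pLKO cells (adjusted p = 0.000105). Col4a2 was at 60.9 and 55.3 CPM in shDRG2 cells with IFN-γ and at 95.6 and 91.2 CPM in unstimulated shDRG2 cells, and at 56.7 and 52.1 CPM with IFN-γ and 89.0 and 88.1 CPM without in pLKO cells. In none of these comparisons did stimulated and unstimulated libraries overlap. The ratio of Col4a2 to Col4a1, taken per kilobase of exon, stayed between 1.69 and 2.14 over the 8 libraries. The 2 genes lie head to head on chromosome 8, and their RefSeq start sites, 11312826 for Col4a1 on the minus strand and 11312805 for Col4a2 on the plus strand, are 21 bases apart. Their promoter windows are shown because the genes moved together and the windows share 78 bases (chr8:11312777-11312854), printed in capitals, so that the capitals of 1 are the reverse complement of those of the other. The windows are chr8:11312777-11313076 (minus strand) and chr8:11312555-11312854 (plus strand), GRCm38.p6. They hold 37 and 33 CpG dinucleotides, while the Col28a1 window holds 0.
Col4a1: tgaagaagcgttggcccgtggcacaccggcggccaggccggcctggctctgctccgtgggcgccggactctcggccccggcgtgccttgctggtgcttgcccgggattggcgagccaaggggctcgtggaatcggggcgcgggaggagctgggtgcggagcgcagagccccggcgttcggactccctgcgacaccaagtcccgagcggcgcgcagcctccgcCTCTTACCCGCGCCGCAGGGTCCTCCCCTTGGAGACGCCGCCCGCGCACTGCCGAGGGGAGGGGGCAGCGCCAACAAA
Col4a2: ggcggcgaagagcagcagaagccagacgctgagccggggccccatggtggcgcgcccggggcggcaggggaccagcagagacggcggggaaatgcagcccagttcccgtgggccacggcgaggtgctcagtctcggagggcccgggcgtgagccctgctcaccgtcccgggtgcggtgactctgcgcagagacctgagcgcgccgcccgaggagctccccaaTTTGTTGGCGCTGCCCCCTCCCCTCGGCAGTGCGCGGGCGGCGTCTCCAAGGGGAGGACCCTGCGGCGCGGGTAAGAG

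The fall did not extend to every type IV chain. Col4a4, a chain of the type IV network known from kidney and eye, was at 0.0999 and 0.0547 CPM in shDRG2 cells with IFN-γ and at 1.09 and 0.930 CPM in unstimulated shDRG2 cells (-3.68, SE 0.535, adjusted p = 0.000464). In pLKO cells Col4a4 was at 0.185 and 0.0609 CPM with IFN-γ and at 1.04 and 0.876 CPM without (-2.98, SE 0.506, adjusted p = 0.00148). Col4a5, on the X chromosome, was not called and had positive values of 0.21 in shDRG2 cells (adjusted p = 0.0752) and 0.21 in pLKO cells (adjusted p = 0.0864).

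Fibril-forming and fibril-associated collagens gave further calls in both directions. Col1a2, a chain of type I collagen, was at 3.26 and 4.60 CPM in shDRG2 cells with IFN-γ and at 18.9 and 17.1 CPM in unstimulated shDRG2 cells (-2.19, SE 0.175, adjusted p = 5.80e-06). In pLKO cells Col1a2 was at 4.82 and 4.51 CPM with IFN-γ and at 18.2 and 14.7 CPM without (-1.82, SE 0.173, adjusted p = 2.59e-05). The other type I chain, Col1a1, did not follow it: it had 0.333 and 0.383 CPM in shDRG2 cells with IFN-γ and 0.0933 and 0.155 CPM in unstimulated shDRG2 cells (1.54, adjusted p = 0.0487, a call kept in 2 of 14 alternative analyses). In pLKO cells Col1a1 stood at -0.06 and was not called. Col9a1 and Col9a3, chains of the same fibril-associated collagen, went opposite ways. Col9a1 fell by 2.01 in shDRG2 cells (adjusted p = 0.000835) and by 1.80 in pLKO cells (adjusted p = 0.000973), while Col9a3 rose by 1.40 (adjusted p = 0.0175) and 1.15 (adjusted p = 0.0324). The Col9a3 call held in 11 of 14 alternatives in shDRG2 cells and in 10 of 14 in pLKO cells, and the Col9a1 call in all 14 in both. Col16a1, another fibril-associated collagen, rose by 0.31 in shDRG2 cells (adjusted p = 0.0466, kept in 5 of 14 alternatives) and by 0.51 in pLKO cells (adjusted p = 0.00528).

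The remaining collagen calls were in genes under 3 CPM. Col8a1, a short-chain collagen of vessel and corneal membranes, rose by 2.08 in shDRG2 cells (adjusted p = 0.0490) and 1.60 in pLKO cells (adjusted p = 0.0249), and the call in shDRG2 cells held in 7 of 14 alternatives. Col11a2, a minor fibril-forming chain, fell in shDRG2 cells (-1.09, adjusted p = 0.0258) and stood at -0.62 in pLKO cells (adjusted p = 0.148). Col14a1, a fibril-associated collagen, fell in pLKO cells (-2.63, adjusted p = 0.0221). It stood at -1.90 in shDRG2 cells (adjusted p = 0.0819), and the difference between the lines was not called for either gene. Col5a1, a fibril-forming chain at 22.3 to 31.1 CPM, was at 0.15 in shDRG2 cells (adjusted p = 0.263). Col12a1, a fibril-associated collagen, was at 0.88 in pLKO cells (adjusted p = 0.201).

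**Figure D3:**
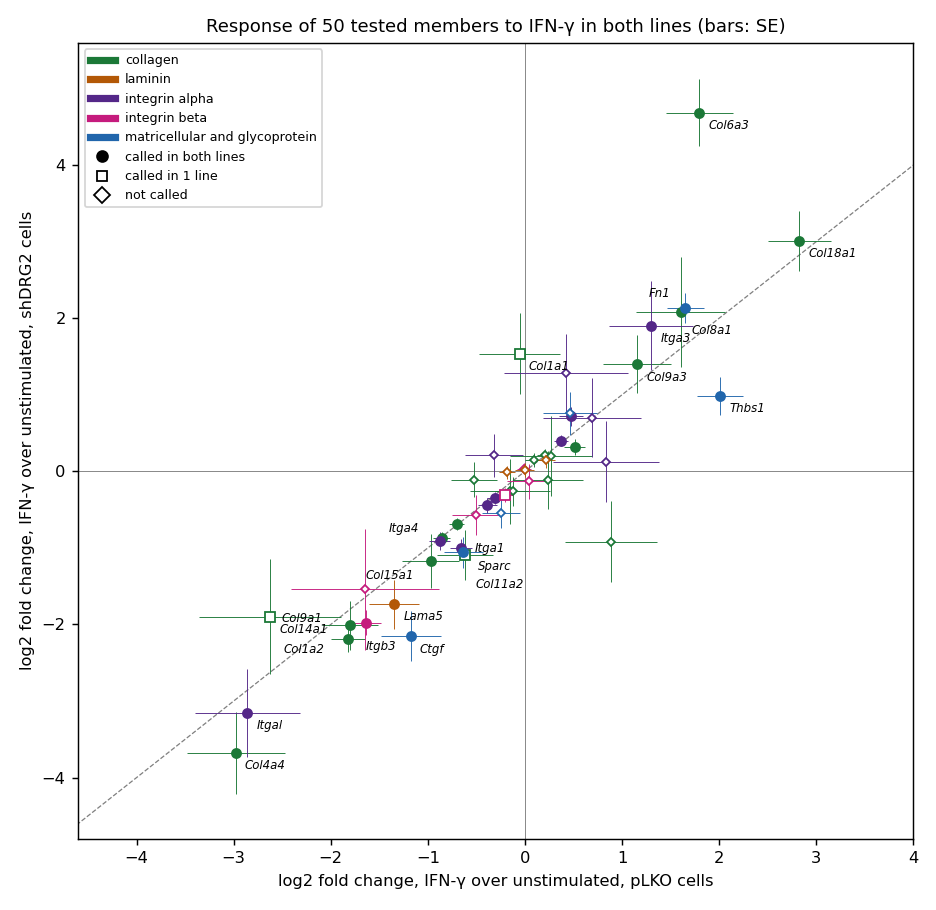
Log2 fold change with IFN-γ in shDRG2 cells (vertical axis) and pLKO cells (horizontal axis) of the 50 tested genes with more than 3 counts in every group, with SE bars and the line of equal response (dashed). Filled circles were called in both lines, open squares in 1 line and open diamonds in neither; Col6a3, at 4.68 and 1.80, lies farthest above the dashed line among genes called in both, and Thbs1, at 0.99 and 2.01, lies below it.

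The laminin trimer chains with high expression were not called, and the scarce chains fell. Lamc1 was at -0.01 in shDRG2 cells (95% interval -0.20 to 0.18) and -0.18 in pLKO cells (-0.37 to 0.01). Lamb2 was at 0.15 in shDRG2 cells (-0.07 to 0.37) and 0.21 in pLKO cells (-0.01 to 0.44), and Lama4 at 0.02 (-0.19 to 0.23) in shDRG2 cells and -0.00423 (-0.22 to 0.21) in pLKO cells. Lama5, the alpha chain of many epithelial and vascular basement membranes, was at 0.433 and 0.520 CPM in shDRG2 cells with IFN-γ and at 1.62 and 1.59 CPM in unstimulated shDRG2 cells (-1.73, SE 0.321, adjusted p = 0.00216). In pLKO cells Lama5 was at 1.67 and 1.74 CPM with IFN-γ and at 3.42 and 5.26 CPM without (-1.35, SE 0.259, adjusted p = 0.00321). Lamb1, a beta chain, had 2 counts in shDRG2 cells with IFN-γ against 17 in unstimulated shDRG2 cells, 9.76-fold lower with a 95% counting interval of 2.32 to 87.1 (adjusted p = 0.0134). In pLKO cells Lamb1 was at 0.260 and 0.122 CPM with IFN-γ and at 1.01 and 0.594 CPM without (-2.09, adjusted p = 0.0106).

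Among integrins the beta chain shared by most receptors did not pass the test, while 8 of 13 tested alpha genes did in shDRG2 cells and 9 of 13 in pLKO cells. Itgb1 had 702 and 680 CPM in shDRG2 cells with IFN-γ and 685 and 662 CPM in unstimulated shDRG2 cells, a log2 fold change of 0.04 with a 95% interval of -0.12 to 0.20. In pLKO cells Itgb1 had 682 and 683 CPM with IFN-γ and 695 and 675 CPM without (-0.01, interval -0.17 to 0.16). Of the alpha genes, 3 rose and 5 fell in shDRG2 cells, and 4 rose and 5 fell in pLKO cells. Of 6 beta genes, 2 fell in shDRG2 cells and 1 in pLKO cells, and none rose. The shares called in shDRG2 and then pLKO cells were 61.5% and 69.2% for alpha and 33.3% and 16.7% for beta genes. Over all tested genes they were 31.4% and 28.1%.

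The alpha chains that rose were Itgav and Itga5, with the scarce Itga3 and Itga2. Itga5, the partner of Itgb1 in the classical fibronectin receptor, was at 23.9 and 19.6 CPM in shDRG2 cells with IFN-γ and at 13.6 and 12.7 CPM in unstimulated shDRG2 cells (0.72, SE 0.122, adjusted p = 0.00126). In pLKO cells Itga5 was at 15.9 and 14.1 CPM with IFN-γ and at 10.7 and 10.9 CPM without (0.47, SE 0.125, adjusted p = 0.0174). Itgav rose by 0.40 in shDRG2 cells (adjusted p = 0.00202) and 0.37 in pLKO cells (adjusted p = 0.00336), with 158 to 165 CPM in the 4 stimulated libraries and 119 to 129 CPM in the 4 unstimulated ones. Itga3, a laminin receptor chain, rose by 1.90 in shDRG2 cells (adjusted p = 0.0303) and by 1.30 in pLKO cells (adjusted p = 0.0463), with no overlap within a line. Its call held in 7 of 13 alternatives in shDRG2 cells and in 2 of 14 in pLKO cells. Itga2, a collagen receptor chain, rose in pLKO cells (2.55, SE 0.558, adjusted p = 0.00665). In shDRG2 cells Itga2 had 15 counts with IFN-γ and 3 without, a ratio of 4.35 with a 95% counting interval of 1.23 to 23.5 (adjusted p = 0.0839).

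The chains that fell included the partner that pairs with Itgav in the classical vitronectin receptor. Itgb3 was at 5.20 and 5.58 CPM in shDRG2 cells with IFN-γ and at 22.4 and 20.03 CPM in unstimulated shDRG2 cells (-1.98, SE 0.158, adjusted p = 5.90e-06). In pLKO cells Itgb3 was at 6.08 and 6.97 CPM with IFN-γ and at 17.5 and 23.4 CPM without (-1.64, SE 0.156, adjusted p = 2.59e-05). Itgb5, another partner of Itgav, fell in shDRG2 cells (-0.31, adjusted p = 0.0234) and was at -0.21 in pLKO cells (adjusted p = 0.115). Itga4, the alpha chain that binds VCAM-1 and fibronectin, was at 23.9 and 27.6 CPM in shDRG2 cells with IFN-γ and at 43.3 and 53.9 CPM in unstimulated shDRG2 cells (-0.91, SE 0.114, adjusted p = 0.000166). In pLKO cells Itga4 was at 36.6 and 39.4 CPM with IFN-γ and at 70.2 and 69.7 CPM without (-0.88, SE 0.112, adjusted p = 0.000214). For both Itgb3 and Itga4, every stimulated library lay below every unstimulated library.

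Falls were also called in both lines for Itga1, a collagen receptor chain (-1.001 in shDRG2 cells, adjusted p = 9.91e-05, and -0.66 in pLKO cells, adjusted p = 0.00165). They were also called for Itga6 (-0.34, adjusted p = 0.00841, and -0.31, adjusted p = 0.0158) and for Itga9, a receptor chain for VCAM-1 and tenascin-C (-0.44, adjusted p = 0.00646, and -0.39, adjusted p = 0.0151). Itgal, known as a leukocyte chain, was at 0.0333 to 0.111 CPM in the stimulated libraries and at 0.504 to 0.672 CPM in the unstimulated ones (-3.16 in shDRG2 cells, adjusted p = 0.00195, and -2.86 in pLKO cells, adjusted p = 0.00289). Itgal passed the filter on low counts through the unstimulated libraries alone, so it could only have been called lower. Its beta partner Itgb2 was not called (-1.54 and -1.65). Itga7 was at 1.28 in shDRG2 cells (adjusted p = 0.0876), and Itga2b at 0.83 and Itga10 at 0.69 in pLKO cells, with none called, and Gm42957 overlaps 33.5% of the exon bases of Itga10 from the same strand.

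The count of calls in pLKO cells was 19 without replicate 1 of unstimulated pLKO cells and 20 without replicate 2 of pLKO cells with IFN-γ. Fewer of all tested genes were called in these fits as well. Of the calls in this gene set, 19 of 31 in shDRG2 cells and 17 of 30 in pLKO cells held in every alternative analysis. Among them in both lines were those of Fn1, Col1a2, Col4a1, Col4a2, Col4a4, Col6a3, Col18a1, Col28a1, Itga1, Itga4, Itgav, Itgb3 and Lama5.

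Between the lines 2 genes were called without IFN-γ and 4 with it, all lower in shDRG2 cells. Col26a1, called in both conditions, had no count in shDRG2 cells and could only have been called lower. Without IFN-γ, 2 of 55 were called, Lama5 and Col26a1, or 3.64%, where 1.2% of all tested genes were called (0.467% higher and 0.733% lower). With IFN-γ, 4 of 55 were called, Lama5, Col26a1, Thbs1 and Itga4, or 7.27%, against 1.67% of all tested genes (0.504% higher and 1.17% lower). With no filter on low counts, 1 of 8 calls without IFN-γ was higher and 7 were lower, and with IFN-γ 2 of 13 were higher and 11 lower. DESeq2 called 4 without IFN-γ, all lower, and 7 with it, 1 of them higher. Calls over all genes also rose in these settings. Without IFN-γ they went from 162 to 678 with no filter and to 302 with DESeq2. With IFN-γ they went from 226 to 653 and 314. Values were below 0 for 36 of the 55 genes without IFN-γ and for 35 with it, with medians of -0.15 and -0.25, while the medians over all tested genes were 0.00736 and 0.00346. The median size was 0.28 over the 55 genes and 0.12 over all genes without IFN-γ, and 0.37 and 0.11 with it. At an unadjusted p under 0.05 there were 18 of 55 without IFN-γ and 24 of 55 with it, against 12.8% and 12% of all tested genes. Log2 fold changes in these comparisons are of shDRG2 over pLKO.

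Lama5 fell in shDRG2 cells in both conditions. With IFN-γ Lama5 was at 0.433 and 0.520 CPM in shDRG2 cells, against 1.67 and 1.74 CPM in pLKO cells (-1.82, SE 0.318, adjusted p = 0.0217). Without IFN-γ Lama5 was at 1.62 and 1.59 CPM in shDRG2 cells, against 3.42 and 5.26 CPM in pLKO cells (-1.43, SE 0.262, adjusted p = 0.0317). The libraries of the lines did not overlap in either condition.

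Col26a1, a collagen with an EMI domain (chromosome 5, 136741759 to 136883209, minus strand), had counts in pLKO libraries only. With IFN-γ it had 0 counts in both shDRG2 libraries, against 12 and 20 counts in pLKO cells, and without IFN-γ 0 counts in both shDRG2 libraries, against 16 and 17 counts in pLKO cells. Taking 3 counts in the shDRG2 group as a floor, Col26a1 was at least 11.9-fold lower in shDRG2 cells with IFN-γ (adjusted p = 0.0178) and at least 9.85-fold lower without (adjusted p = 0.0276). Col26a1 passed the filter on low counts through its pLKO counts alone, so the direction of these tests was fixed beforehand. The level in pLKO cells was 0.445 to 0.609 CPM.

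Thbs1 was lower in shDRG2 cells with IFN-γ, at 7.36 and 9.98 CPM, against 24.4 and 18.2 CPM in pLKO cells (-1.29, SE 0.229, adjusted p = 0.0232). Without IFN-γ Thbs1 was at 3.30 and 5.58 CPM in shDRG2 cells, against 5.62 and 4.91 CPM in pLKO cells, which overlap (-0.26, SE 0.260, adjusted p = 0.755). Itga4 was lower in shDRG2 cells with IFN-γ, at 23.9 and 27.6 CPM, against 36.6 and 39.4 CPM in pLKO cells (-0.56, SE 0.115, adjusted p = 0.0419). Without IFN-γ Itga4 was at 43.3 and 53.9 CPM in shDRG2 cells, against 70.2 and 69.7 CPM in pLKO cells (-0.53, adjusted p = 0.0528).

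**Figure D4:**
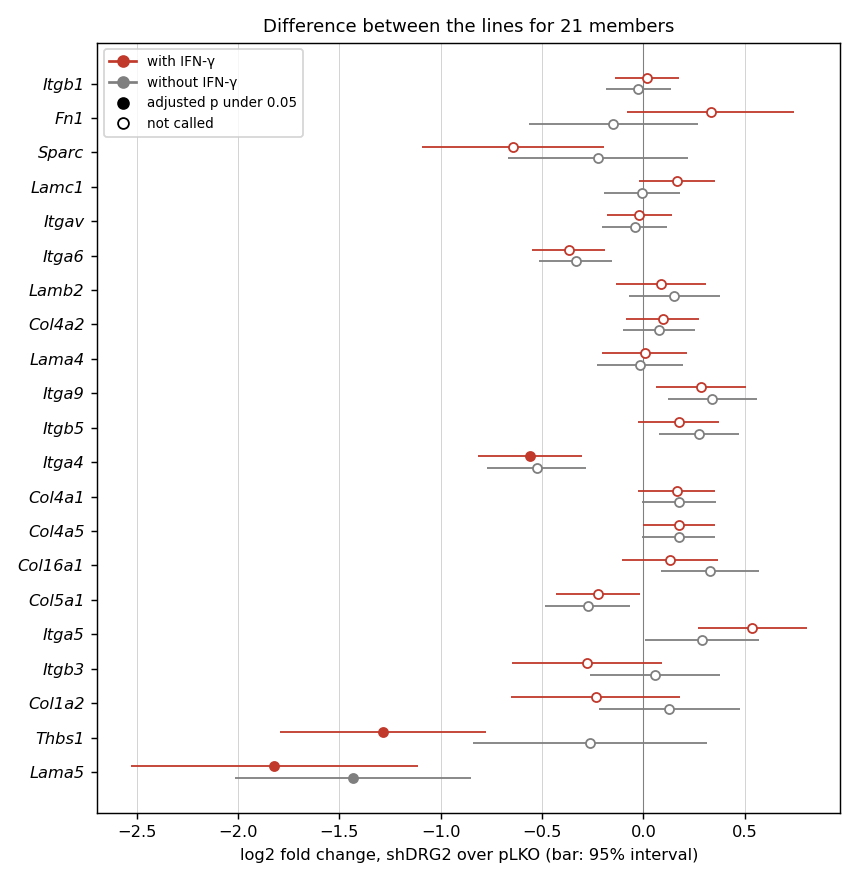
Log2 fold change of shDRG2 over pLKO cells, with 95% intervals, for 21 genes: those averaging at least 10 CPM and Thbs1 and Lama5, which were called, in order of mean level. Red is with IFN-γ and grey without, and filled points passed the adjusted threshold; only Itga4, Thbs1 and Lama5 have filled points, all below 0, and Itgb1 and Itgav lie at 0 within narrow intervals.

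Several further genes had large or same-signed values without passing. Itga6 was at -0.37 with IFN-γ (adjusted p = 0.0554) and -0.33 without (adjusted p = 0.0840), and its libraries did not overlap between the lines. Col15a1 was at -1.56 with IFN-γ (adjusted p = 0.0567) and -1.36 without (adjusted p = 0.0649), again without overlap. Col8a1 was at -1.80 (adjusted p = 0.102) and -2.28 (adjusted p = 0.177). Col6a3 was at 0.67 with IFN-γ (adjusted p = 0.387) and -2.22 without (adjusted p = 0.0876). Col1a1 was at -0.16 with IFN-γ and -1.75 without (adjusted p = 0.156). Col6a1 had 1 count in unstimulated shDRG2 cells, against 6 counts in unstimulated pLKO cells, 5.38-fold lower with a 95% counting interval of 0.652 to 247, and its value with IFN-γ was 0.49. Itga2 was at -1.72 with IFN-γ (adjusted p = 0.152). Lamb1 had 2 counts in shDRG2 cells with IFN-γ, against 11 in pLKO cells with IFN-γ, 6.12-fold lower with a 95% counting interval of 1.34 to 56.8 (adjusted p = 0.255). Itga5 was higher by 0.54 with IFN-γ without being called (adjusted p = 0.0605). Further uncalled genes had values above 0 in both conditions. Itga9 was at 0.29 with IFN-γ and 0.34 without, Itgb5 at 0.17 and 0.28, Col16a1 at 0.13 and 0.33 and Itga7 at 1.31 and 0.46.

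None of Itgb1, Itgav, Lamc1, Fn1 and Sparc was called between the lines. Itgb1 was at 0.02 with IFN-γ (95% interval -0.14 to 0.18) and -0.02 without (-0.18 to 0.14). Itgav was at -0.02 (-0.18 to 0.14) and -0.04 (-0.21 to 0.12), and Lamc1 at 0.17 (-0.02 to 0.36) and -0.01 (-0.20 to 0.18), with and without IFN-γ. Fn1 was at 0.33 with IFN-γ (-0.08 to 0.74) and -0.15 without (-0.57 to 0.27). Sparc was at -0.64 with IFN-γ (-1.09 to -0.20, adjusted p = 0.184) and -0.22 without (-0.67 to 0.22, adjusted p = 0.723). The CCN genes were not called either: Ctgf was at -0.77 with IFN-γ (adjusted p = 0.413) and 0.21 without, and Cyr61 at -0.25 and 0.06. Vcan was at 0.23 with IFN-γ and -0.07 without.

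By position, 3 of the 4 genes called with IFN-γ (Lama5, Thbs1 and Itga4) lie on chromosome 2, on which 9 of the 55 tested genes lie, 8 of them with values below 0 in each condition. The median over all 1057 tested genes of chromosome 2 was -0.00378 with IFN-γ and 0.00601 without. Chromosome 14, the autosome whose tested genes stood lowest in shDRG2 cells (median -0.275 with IFN-γ and -0.28 without), holds none of the 55.

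With IFN-γ, every call was lost without either library of shDRG2 cells with IFN-γ. The Lama5 and Itga4 calls were also lost without either library of pLKO cells with IFN-γ, Thbs1 without replicate 1 and Col26a1 without replicate 2. The Itga4 call held in 6 of 14 alternatives. Over the alternatives the values ran from -1.97 to -1.70 for Lama5, -1.53 to -1.06 for Thbs1 and -0.67 to -0.46 for Itga4. Without IFN-γ, the Col26a1 call was lost without any single unstimulated library. The Lama5 call was lost without either library of shDRG2 cells in either condition, or without replicate 2 of unstimulated pLKO cells. Its value ran from -1.72 to -1.09. Leaving out a library of a compared group leaves a single library in it, and calls over all tested genes fell too in such fits.

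The difference between the responses of the 2 lines was tested directly and no gene of the 55 was called, where 0.00741% of all tested genes, or 1 gene, was. At an unadjusted p under 0.05 there were 5 of 55, against 2.38% of all tested genes. DESeq2 called none, and edgeR without a filter on low counts called Col6a3 and Thbs1, where 58 of all 21481 genes were called. Col6a3 had the smallest p, with a response larger in shDRG2 cells by 2.89 on the log2 scale (SE 0.610, unadjusted p = 0.000783, adjusted p = 0.991). The Thbs1 response was lower in shDRG2 cells by value (-1.02, SE 0.346, unadjusted p = 0.0142). The others were Col12a1 (-1.80), Col1a1 (1.59) and Col6a1 (2.68, resting on 1 count in unstimulated shDRG2 cells). Intervals for abundant genes were narrow: 0.04 for Itgb1 (95% interval -0.18 to 0.27), 0.02 for Itgav (-0.21 to 0.25) and 0.17 for Lamc1 (-0.10 to 0.44). Fn1 stood at 0.48 (-0.11 to 1.07), Sparc at -0.42 and Ctgf at -0.98.

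Genes whose products make, modify or read this matrix were examined by list. Over all tested genes, 31.4% were called with IFN-γ in shDRG2 cells and 28.1% in pLKO cells. The shares were 56.5% and 43.5% for collagen synthesis and crosslinking, and 52.4% and 42.9% for matrix partners. They were 59.1% in each line for proteases and inhibitors, 50% and 38.9% for adhesion adaptors, and 60% and 53.3% for YAP and TAZ outputs. Of 23 tested collagen synthesis and crosslinking genes, 8 rose and 5 fell with IFN-γ in shDRG2 cells, and 7 rose and 3 fell in pLKO cells. Tgm2, a transglutaminase that crosslinks matrix proteins, rose by 6.11 in shDRG2 cells and 4.61 in pLKO cells. Plod3, a lysyl hydroxylase of collagen, rose by 1.44 and 1.45, Pcolce, an enhancer of procollagen cleavage, by 0.83 and 0.85, the procollagen protease gene Adamts14 by 3.08 and 2.00 and Bmp1, another one, by 0.61 and 0.43, in shDRG2 and then pLKO cells. P3h1 and P4ha1, prolyl hydroxylases of collagen, also rose in both lines, and P3h3 in shDRG2 cells. Plod2 (-0.80 and -0.66), Loxl3 and Mia3 fell in both lines, and P4ha2 and Plod1 in shDRG2 cells. Between the lines, Tgm2 rose in shDRG2 cells with IFN-γ (1.82) and Bmp1 fell without it (-0.46).

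Of 21 tested basement membrane and matrix partners, 3 rose and 8 fell with IFN-γ in shDRG2 cells, and 2 rose and 7 fell in pLKO cells. Fbn1, the gene of the microfibril protein fibrillin-1, had 547 counts in shDRG2 cells with IFN-γ and 1 without, a ratio of 476 with a 95% counting interval of 85.1 to 18844, and 440 counts in pLKO cells with IFN-γ and 1 without. Tgfb2 rose (0.62 and 0.54) and Tgfb1 fell (-1.85 and -1.55), both of them TGF-beta ligands, and Ltbp1, which tethers latent TGF-beta, rose in shDRG2 cells (2.96). Hspg2, the gene of the basement membrane proteoglycan perlecan, fell (-0.67 and -0.79), with Fbln1, Fbln5, Ltbp3, Sdc1 and Sdc3 in both lines and Sdc4 in shDRG2 cells. None of the 21 was called between the lines, and the most abundant, Dag1, stood at 0.10 with IFN-γ and 0.11 without.

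Of 22 tested matrix proteases and inhibitors, 4 rose and 9 fell with IFN-γ in each line. Mmp19, a matrix metalloproteinase, Plat, the tissue plasminogen activator, Adamts4, an aggrecanase, and Adam10 rose in both, with Plat at 2.37 in shDRG2 cells and 1.82 in pLKO cells. Adam9, Adam12, Adam19, Adamts1, Mmp15, Reck, Timp2 and Timp3 fell in both, with Timp3, a matrix-bound inhibitor, at -1.08 and -0.78, and Adamts5 fell in shDRG2 cells and Plaur in pLKO cells. Between the lines Adam19 rose in shDRG2 cells in both conditions (0.50 with IFN-γ and 0.49 without), and Adam12 fell without IFN-γ (-1.67).

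Of 36 tested adhesion adaptor and signalling genes, 2 rose and 16 fell with IFN-γ in shDRG2 cells, and 4 rose and 10 fell in pLKO cells. Cd47, the receptor of thrombospondin-1 that also signals to phagocytes, rose (2.13 and 2.01), as did Crkl, and Cd151 and Ilk rose in pLKO cells. Parvb, an actin-binding partner of the integrin-linked kinase, fell (-1.80 and -1.49), as did Vcl (vinculin), Pxn (paxillin), Src, Fyn, Bcar1, Actn1, Cav1, Tns2 and Tns3 in both lines. Cd9, Itgb3bp, Parva, Rap1a, Tns1 and Zyx fell in shDRG2 cells. Between the lines, 1 gene of this list was called higher and 1 lower in shDRG2 cells without IFN-γ, and 1 was called lower with it. The higher one was Rap1a, a small GTPase of integrin activation (0.42).

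Of 15 tested YAP and TAZ outputs other than Ctgf and Cyr61, 5 rose and 4 fell with IFN-γ in shDRG2 cells, and 5 rose and 3 fell in pLKO cells. Axl (1.00 and 1.33), Gadd45a, Tgfb2 and Nuak2 rose in both lines, with F3 in shDRG2 cells and Lats2 in pLKO cells. Amotl2 (-0.49 and -0.38), Dock5 and Ptpn14 fell in both, and Rbms3 in shDRG2 cells. Between the lines F3 (0.60) and Wwc1 (0.38) rose in shDRG2 cells with IFN-γ, and none was called without it. Ctgf, which fell, and Thbs1, which rose, are also known outputs of this pathway.

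Markers of matrix-producing cells were set beside these changes. With IFN-γ, Acta2, a smooth muscle actin also used as a myofibroblast marker, was at 2.60 and 2.52 CPM in shDRG2 cells and 3.45 and 2.38 CPM in pLKO cells, and it had no count in the 4 unstimulated libraries. The summed level of the 9 fibroblast markers was 10.99 and 10.6 CPM in shDRG2 cells with IFN-γ and 11.1 and 10.5 CPM in unstimulated shDRG2 cells. In pLKO cells it was 12.8 and 12.2 CPM with IFN-γ and 12.7 and 12.9 CPM without. Thy1 was at 0 in all 8 libraries and Dcn in 7, while Pdgfrb fell in both lines (-0.39 in shDRG2 cells and -0.46 in pLKO cells). Vwf, an endothelial marker, was at 0.246 to 0.482 CPM with IFN-γ and 1.07 to 5.35 CPM without, and it fell with IFN-γ in both lines (-3.88 in shDRG2 cells and -1.70 in pLKO cells) and rose in unstimulated shDRG2 over pLKO cells (1.91). Pecam1, another endothelial marker, fell in pLKO cells (-1.73). Of the 8 immune markers 2 were tested and none was called, and Cdh1 of the epithelial list fell in shDRG2 cells (-1.55). Ncam1 of the neural list fell in both lines (-0.56 and -0.69). The part of other cells in the changes of the 91 genes was not tested beyond these levels.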

How the data were processed

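Bulk RNA of 8 libraries, 4 groups of 2, was sequenced from B16F10 lines; the labels give 1.0 µg of RNA with a RIN above 8.5. The authors deposited 1 table of estimated counts per gene, of which 86.4% of nonzero values were whole within 0.0015. Per the submitters' processing notes, STAR, Salmon 1.5.2 and mm10 were used; for the gene annotation, the gene-level summary and the strand setting the sources used here give nothing. Of 45583 entries, 27 with date-like names, which name no gene (0.204% to 0.212% of counts), were left out. Estimated counts were rounded, genes were kept by edgeR's filterByExpr (minimum count 10), scaled by TMM and tested with edgeR 4.0.16 (quasi-likelihood, R 4.3.3) in 1 fit of the 4 groups over 13500 genes, with Benjamini-Hochberg adjustment over all of them and a threshold of 0.05. CPM are counts scaled to the library total after adjustment by the TMM factors, which ran from 0.973 to 1.04. Counts of 0 or of 1 to 3 in a group are given as bounds or ratios with 95% counting intervals; the libraries carry no molecular identifiers in the labels, so intervals and floors cover counting error only. Library totals were 25422758 to 36654519.

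The members and lists were chosen with earlier results of these data known. Genes named were all members called, the 6 uncalled with the highest CPM, the 4 uncalled with the largest change, the 8 named glycoproteins, and in each other list the genes called or else the most abundant. Gene positions are from GENCODE M21 (GRCm38, the assembly also called mm10), with Ctgf and Cyr61 matched as Ccn2 and Ccn1. Promoter windows are from RefSeq GRCm38.p6 and were matched for 64 of the 91 genes. The fit was tested on simulated data. The alternatives were RLE scaling, library size only, no filter, DESeq2 1.42.0, fits of 2 groups, a replicate block and leaving out each library. A few genes of the partner and marker lists are not reported here.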

Additional observations from a re-analysis of the deposited data

How the results depend on the processing

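Of the 67 calls made among the 55 genes, 36 held in each of the 14 alternatives run: 19 of 31 for IFN-γ in shDRG2 cells, 17 of 30 for IFN-γ in pLKO cells and none of the 6 between the lines. No called value changed sign in any alternative. Between the lines without IFN-γ, 2 genes were called, against 8 with no filter on low counts, 4 with DESeq2, 8 with the replicate block and 0 to 2 without 1 library. With IFN-γ, 4 were called, against 13 with no filter, 7 with DESeq2, 12 with the replicate block and 0 to 4 without 1 library. Calls over all tested genes moved as well. Without IFN-γ they were 162, against 678 with no filter, 302 with DESeq2 and 673 with the block. With IFN-γ they were 226, against 653, 314 and 675. They fell where a library of a compared group was left out. Under the block, 2 of the 8 genes of the 55 called without IFN-γ (Itga9 and Itgb5) were higher in shDRG2 cells. So were 2 of the 12 called with it (Itga5 and Itga9), where the fit without the block gave no higher call. For the response in pLKO cells the count was 30, with 32 under the replicate block, 21 with DESeq2 and 19 to 28 without 1 library. For shDRG2 cells it was 31, with 34 under the block, 25 with DESeq2 and 21 to 31 without 1 library. For the difference of the responses, 0 were called, against 2 with no filter, and a fit of 2 groups was not possible. Over all tested genes the difference was called for 1 gene, against 58 with no filter. The labels do not say what a replicate number marks, and deviations of libraries with the same number correlated at 0.107 to 0.274. The cause of these changes was not tested. The 18 tested genes under 1 CPM rest on few counts.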
